A study of Mus musculus with 12 samples.

Results

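Cathelicidin, epidermal kallikreins, only some of which are known to process it, and an inhibitor of several of these proteases were followed at the transcript level in mouse skin. The set holds 9 genes, taken by name: Camp, Klk5, Klk6, Klk7, Klk8, Klk10, Klk13, Klk14 and Spink5. All 9 were found by Ensembl identifier among the 52636 genes listed, and all 9 were among the 17993 genes that passed the filter on low counts. RNA sequencing was performed on whole skin of BALB/c mice in 12 libraries. The 4 groups, of 3 libraries each, are LL37, LL37 + RAPA, control and control + RAPA. LL37 is the active peptide of human cathelicidin, and in this rosacea model 40 μl of it at 320 μM was injected into the dermis of the back repeatedly over 2 days, whereas control mice received vehicle. RAPA is rapamycin, an inhibitor of the kinase complex mTORC1, given at 4 mg/kg per day. The mice carried no engineered allele and, by the methods, were females of 6 to 8 weeks.

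Cathelicidin is made as an inactive precursor, in the granules of neutrophils and in keratinocytes, and serine proteases cut out the active antimicrobial peptide. In human skin, KLK5 and KLK7 do this work, and raised cathelicidin and kallikrein activity is a known feature of rosacea. Kallikreins are secreted as proenzymes in the upper epidermis, where they also cleave the junctions that hold corneocytes together and so drive shedding of the skin surface. Spink5 encodes LEKTI, a serine protease inhibitor that holds several epidermal kallikreins in check and whose loss causes Netherton syndrome.

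Counts per library ranged from 15734559 to 23271784, and levels are given in CPM, which is the count divided by the TMM-adjusted library size so that libraries can be compared. The floor of detection, set at 3 counts, was 0.123 to 0.184 CPM depending on the library. Group means are given ± SD over 3 libraries, fold changes are from edgeR, and a gene was called when its adjusted p-value was under 0.05 and its absolute log2 fold change above 1. Nothing in the labels ties the replicates to named animals or litters, so p-values measure the spread between these samples. LL37 replicate 3 stood apart from the other LL37 libraries on the first principal component of all genes (68.3% of the variance), at 64.4 against 133 and 129. Levels of cell type markers also differed between the groups. Skeletal muscle markers took 4.64 to 6.56% of the counts in control skin and 0.0216 to 0.143% in LL37 skin, and the summed pan-epidermal keratinocyte markers ranged from 17711 to 24070 CPM in control and from 28312 to 32613 CPM in LL37 skin. In such bulk tissue, fewer cells of a type and less RNA per cell cannot be told apart.

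The 7 kallikreins lie on the plus strand of chromosome 7 within 160.8 kb (GRCm38, 43690418 to 43851181), in the order Klk14, Klk13, Klk10, Klk8, Klk7, Klk6 and Klk5, with Klk12, Klk11 and Klk9 between them. Camp is on the minus strand of chromosome 9 (109847379 to 109849617). Exons of Klk8 and Klk14 overlap exons of 2310002F09Rik on the other strand, and the strand setting of the counting is not given in the sources used here, so reads of these pairs could be mixed. The stretches upstream of the start sites of Klk6, which has 2 annotated starts, of Klk13 and of Klk10 are shown because these are the members called in LL37 against control below. They are RefSeq promoter sequences on GRCm38, plus strand, 5′ to 3′, cut where an annotated exon begins, and capitals mark matches to the NF-κB motif and to the HIF core ACGTG, on either strand.
Klk6, first start, chr7:43824294-43824498: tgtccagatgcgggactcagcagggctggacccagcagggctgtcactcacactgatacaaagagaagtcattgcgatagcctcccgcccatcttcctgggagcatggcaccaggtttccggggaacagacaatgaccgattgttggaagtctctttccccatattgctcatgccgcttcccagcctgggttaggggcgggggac
Klk6, second start, chr7:43825200-43825394: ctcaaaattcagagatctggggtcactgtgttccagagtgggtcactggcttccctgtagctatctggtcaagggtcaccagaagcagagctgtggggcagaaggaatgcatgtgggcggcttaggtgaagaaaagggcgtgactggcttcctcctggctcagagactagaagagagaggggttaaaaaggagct
Klk13, chr7:43712317-43712566: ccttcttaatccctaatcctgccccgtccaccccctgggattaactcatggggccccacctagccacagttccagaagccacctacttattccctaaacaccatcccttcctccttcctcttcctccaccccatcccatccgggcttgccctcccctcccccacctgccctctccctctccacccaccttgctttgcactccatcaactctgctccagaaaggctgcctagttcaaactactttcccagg
Klk10, chr7:43780804-43781034: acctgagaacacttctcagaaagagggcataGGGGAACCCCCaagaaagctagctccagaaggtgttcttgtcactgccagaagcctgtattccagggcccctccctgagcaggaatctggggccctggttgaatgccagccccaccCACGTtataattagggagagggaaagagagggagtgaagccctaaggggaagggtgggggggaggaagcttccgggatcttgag

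Promoter windows were at hand for 8 of the 9 genes, 9 windows in all, and 5 motifs were searched on both strands in the 250 bases before each start. The NF-κB motif was in 1 of 9 windows, that of Klk10, against 7.25% of the 32851 mouse promoter windows, and its capitals there are 2 matches that overlap. The AP-1 letters TGANTCA (6.75% of all windows), the C/EBP letters TTGCNNAA (9.56%) and the grainyhead letters AACNNGTT (3.64%) were in 0 of the 9 windows. The HIF core ACGTG was also in 1 window, again that of Klk10, against 16.6% of all windows. A looser NF-κB form, with any base at the 5 middle positions, was searched first and replaced after its matches were seen; it was in 6 of the 9 windows, those of Klk13, Klk10 and one Klk6 start among them, against 45.8% of all windows. The stricter form was not found upstream of either Klk6 start or of Klk13. A match is a description of the letters only.

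In control skin the members spanned a wide range of levels. Per kilobase of exon, the order was Klk7 (82.6 ± 13.4 CPM per kb), Spink5 (78.0 ± 6.65), Klk5 (56.1 ± 10.8), Klk8 (18.9 ± 1.37), Klk10 (18.5 ± 6.91), Klk6 (14.3 ± 13.6), Klk13 (0.946 ± 0.772), Camp (0.438 ± 0.389) and Klk14 (0.355 ± 0.199). Libraries overlapped between Klk7 and Spink5, among Klk8, Klk10 and Klk6 as neighbours, and among Klk13, Camp and Klk14, so the order within each of these runs was not resolved. LL37 changed the top of this order, since Klk6 then stood first at 167 ± 50.6 CPM per kb. It was above Spink5 at 78.2 ± 15.3 and, between libraries, overlapped Klk7 at 143 ± 43.3. Within LL37 replicates 1 to 3, Klk6 and Klk7 were at 202 and 149, 109 and 96.6, and 190 and 182 CPM per kb. In LL37 + RAPA skin the first 3 places were again held by Klk7 (78.0 ± 7.89 CPM per kb), Spink5 (69.9 ± 10.5) and Klk5 (43.0 ± 3.66).

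**Figure D1:**
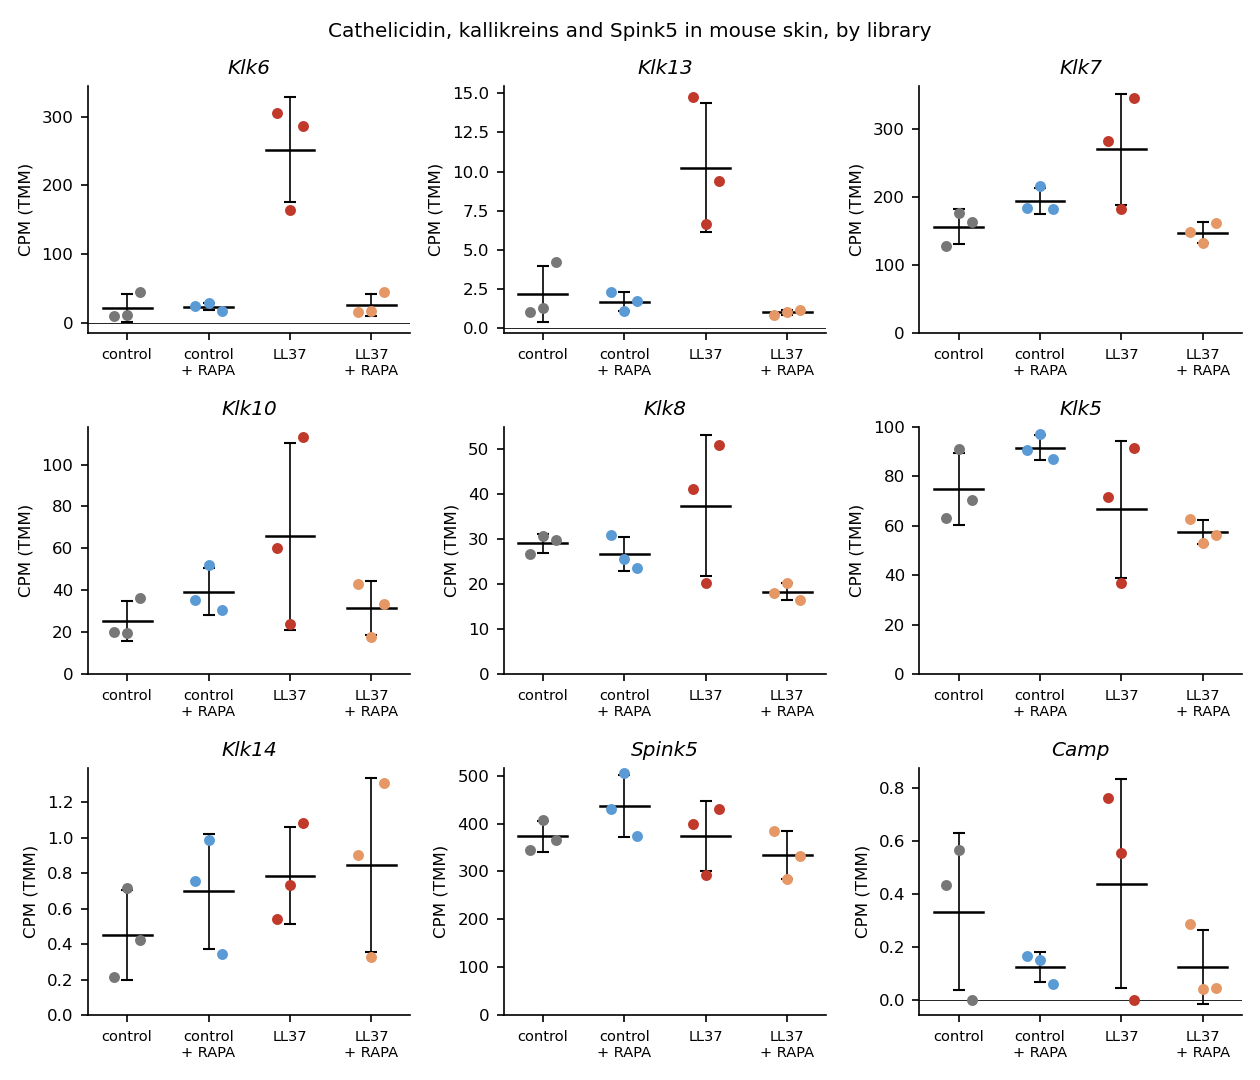
Level of each of the 9 genes in CPM after TMM normalization (vertical axes, linear and different for each gene) in the 4 groups (horizontal axis). Points are libraries, horizontal bars are means of 3 libraries and whiskers are SD; the 3 LL37 libraries of Klk6 (165 to 305 CPM) and of Klk13 (6.62 to 14.7 CPM) lie above every other library of that gene.

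The first comparison, LL37 against control, asked which members differed in the skin of the rosacea model. Klk6, Klk13 and Klk10 were called higher and no member was called lower. Of all genes tested, 8.73% were called higher and 10.8% lower in this comparison. Klk7 also had an adjusted p under 0.05 (42.6% of all genes did), below the fold limit, while Klk8, Klk5, Klk14, Spink5 and Camp did not pass the test. The second comparison, LL37 against LL37 + RAPA, asked which of them were lower when mTORC1 was inhibited. Here Klk6, Klk13 and Klk8 were called higher in LL37 and none lower, with 4.33% of all genes called higher and 5.8% lower, and Klk7 again had an adjusted p under 0.05 (24.2% of all genes did) below the fold limit. Both comparisons use the same LL37 libraries.

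Klk6, a trypsin-like kallikrein of the epidermis and the nervous system, had the largest log2 fold change of the members against control. Its level was 9.06, 10.6 and 45.3 CPM in the control libraries and 305, 165 and 287 CPM in LL37. In LL37 + RAPA it was 15.6, 16.6 and 44.0 CPM, and in control + RAPA 23.6, 28.3 and 17.5 CPM. Every LL37 library was thus above every library of the other groups, whereas the other 3 groups overlapped. The log2 fold change was 3.54 (SE 0.62, 95% interval 2.19 to 4.90, adjusted p = 0.000902) against control and 3.31 (SE 0.61, adjusted p = 0.00424) against LL37 + RAPA. Control replicate 3 was the high control, and without it the first value rose to 4.68, an increase from 11.7-fold to 25.6-fold. Without LL37 + RAPA replicate 3, the high library of that group, the second rose to 3.97, from 9.94-fold to 15.7-fold.

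Klk13, another trypsin-like kallikrein that is abundant in stratified epithelia, was also higher in LL37, at a far lower level, and its log2 fold change against LL37 + RAPA was about that of Klk6. It was at 1.02, 1.28 and 4.21 CPM in control, 14.7, 6.62 and 9.37 CPM in LL37, 0.854, 1.02 and 1.17 CPM in LL37 + RAPA and 2.28, 1.09 and 1.73 CPM in control + RAPA. Again the LL37 libraries did not overlap those of any other group. The log2 fold change was 2.23 (SE 0.48, adjusted p = 0.00326) against control and 3.32 (SE 0.52, adjusted p = 0.00208) against LL37 + RAPA, from 18 to 271 counts per library. Leaving out control replicate 3, which was the high control for this gene as well, gave 3.14 against control, or 8.79-fold in place of 4.71-fold. Libraries of different groups that do not overlap were found for 49.7% of all genes in the first comparison and 38.3% in the second.

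Klk7, the chymotrypsin-like kallikrein of corneocyte shedding and cathelicidin processing, shifted less. Its values were 128, 177 and 164 CPM in control, 282, 183 and 346 CPM in LL37, 148, 133 and 163 CPM in LL37 + RAPA and 184, 217 and 183 CPM in control + RAPA. The LL37 libraries did not overlap those of control or LL37 + RAPA, but LL37 replicate 2 was only just above the highest control and level with the lowest control + RAPA libraries. The log2 fold change was 0.79 (SE 0.20, adjusted p = 0.00807) against control and 0.87 (SE 0.20, adjusted p = 0.0108) against LL37 + RAPA. Both were under the fold limit, and without LL37 replicate 2 they passed it, at 1.04 and 1.09.

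Klk10 and Klk8 each passed in 1 of the comparisons, and in both genes the LL37 libraries were spread widely. Klk10, whose protein is secreted by differentiated keratinocytes, was at 20.0, 19.7 and 36.3 CPM in control, 60.0, 24.1 and 113 CPM in LL37, 43.0, 17.7 and 33.6 CPM in LL37 + RAPA and 35.5, 52.2 and 30.4 CPM in control + RAPA. LL37 replicate 2 lay among the control and the LL37 + RAPA libraries, and LL37 replicate 3 was the highest of all. The log2 fold change was 1.38 (SE 0.49, adjusted p = 0.0403) against control and 1.07 (SE 0.48, adjusted p = 0.129) against LL37 + RAPA. The call against control was lost without control replicate 1 (1.24, adjusted p = 0.125), control replicate 2 (1.22, adjusted p = 0.125), LL37 replicate 1 (1.44, adjusted p = 0.0681) or LL37 replicate 3 (0.76, adjusted p = 0.168), and without LL37 replicate 2 the comparison with LL37 + RAPA gained one (1.47, adjusted p = 0.0319).

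Klk8, also called neuropsin, is a trypsin-like kallikrein of the upper epidermis. It was at 26.6, 30.6 and 29.9 CPM in control and 41.2, 20.2 and 50.9 CPM in LL37. In LL37 + RAPA it was at 18.1, 20.3 and 16.5 CPM, and in control + RAPA at 31.0, 25.7 and 23.5 CPM. LL37 replicate 2 was below all controls and within the LL37 + RAPA range, and the other LL37 libraries were above all libraries of the other groups. The log2 fold change was 0.37 (SE 0.25, adjusted p = 0.269) against control and 1.03 (SE 0.26, adjusted p = 0.0153) against LL37 + RAPA. The call fell under the limits without LL37 replicate 1 (0.96, adjusted p = 0.0561), LL37 replicate 3 (0.75, adjusted p = 0.0296), LL37 + RAPA replicate 1 (1.02, adjusted p = 0.0551) or LL37 + RAPA replicate 3 (0.96, adjusted p = 0.0582).

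Klk5, the trypsin-like kallikrein that starts the epidermal activation cascade and cleaves the human cathelicidin precursor, was not called. It was at 63.2, 91.1 and 70.4 CPM in control, 71.7, 36.8 and 91.6 CPM in LL37, 62.8, 53.2 and 56.4 CPM in LL37 + RAPA and 90.7, 97.0 and 87.2 CPM in control + RAPA. Its LL37 libraries were spread from below every other library to the level of the highest control. The log2 difference was -0.17 (95% interval -0.72 to 0.39, adjusted p = 0.628) against control and 0.22 (95% interval -0.34 to 0.77, adjusted p = 0.561) against LL37 + RAPA, so the intervals exclude changes of the size seen for Klk6 and Klk13.

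Klk14, a further activator within the cascade, was near the limit of detection, with 4 to 29 counts per library. The counts were 4, 14 and 8 in control, 10, 12 and 23 in LL37, 19, 8 and 29 in LL37 + RAPA and 14, 20 and 6 in control + RAPA, and all groups overlapped. The log2 difference of LL37 from control was 0.80 (95% interval -0.50 to 2.09, adjusted p = 0.304), an interval too wide to tell a fall from a rise.

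Spink5, on the plus strand of chromosome 18 (43963235 to 44022501), was not called in any comparison. It was at 345, 408 and 366 CPM in control, 399, 292 and 431 CPM in LL37, 385, 285 and 333 CPM in LL37 + RAPA and 430, 505 and 375 CPM in control + RAPA. The log2 difference was 0.00 (95% interval -0.36 to 0.37, adjusted p = 0.988) against control and 0.16 (95% interval -0.20 to 0.52, adjusted p = 0.502) against LL37 + RAPA. All 4 groups overlapped.

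**Figure D2:**
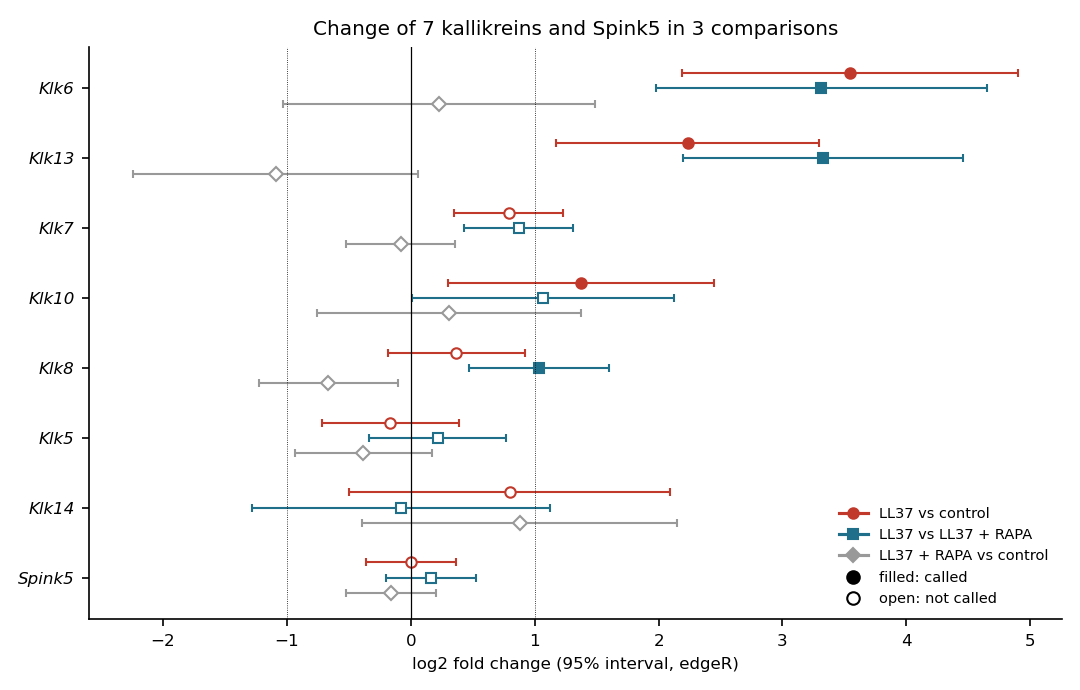
Log2 fold change (horizontal axis) of the 7 kallikreins and Spink5 (vertical axis) for LL37 against control, for LL37 against LL37 + RAPA and for the latter against control, with 95% intervals from edgeR and 3 libraries per group. Filled symbols are called, dotted lines mark the fold limit, and only Klk6 and Klk13 are filled in both comparisons that involve LL37 skin without RAPA.

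Camp itself was barely detected. Its counts were 8, 11 and 0 in control, 14, 9 and 0 in LL37, 6, 1 and 1 in LL37 + RAPA and 3, 3 and 1 in control + RAPA, so that 2 libraries held none and every control + RAPA library was at or under 3 counts. Pooled over a group this is 19 counts in control, 23 in LL37, 8 in LL37 + RAPA and 7 in control + RAPA. The ratio of pooled counts, each relative to the pooled library totals, was 1.31 for LL37 to control (95% interval 0.684 to 2.55) and 3.39 for LL37 to LL37 + RAPA (1.46 to 8.76), intervals that cover counting error only and leave out the spread between mice. With that spread included, edgeR called Camp in neither comparison (adjusted p = 0.81 and 0.287). By the same pooled counts, the ratio to control was 0.387 for LL37 + RAPA (0.147 to 0.927) and 0.360 for control + RAPA (0.128 to 0.893). The ratio of LL37 + RAPA to control + RAPA was 1.08 (0.341 to 3.49). In these comparisons edgeR did not call Camp either (adjusted p = 0.5, 0.8 and 0.984). With so few counts and this spread between the libraries of a group, a change of the mouse cathelicidin transcript was left unresolved.

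Neutrophil markers did differ between the groups. Of 18 such markers, 15 were tested, and 13 were called higher and 1 lower in LL37 than in control; the most abundant, S100a9 and S100a8, which encode the subunits of calprotectin, ranged from 2.46 to 28.6 CPM and from 2.10 to 24.5 CPM in control and from 91.9 to 1100 CPM and from 55.4 to 686 CPM in LL37. The summed level of the list was 89.5 to 175 CPM in control, 387 to 3165 CPM in LL37, 241 to 645 CPM in LL37 + RAPA and 140 to 193 CPM in control + RAPA. For all genes tested, the shares called in LL37 against control were 8.73% higher and 10.8% lower. Markers of the list differed widely in abundance, and some had few counts. Ngp, which encodes a granule protein related to cathelicidin, was at 1, 0 and 2 counts in control and 28, 15 and 0 in LL37, and Ltf, which encodes lactoferrin, at 5, 1 and 1 and at 13, 25 and 4 counts. Chil3, which encodes a chitinase-like protein, had 146 to 326 counts per LL37 library, and Cd177, a neutrophil surface protein gene, had 46 to 138. These 4 genes were chosen after their values were seen. LL37 replicate 3, in which the neutrophil sum was lowest among the LL37 libraries, was also the LL37 library with 0 counts of Camp and Ngp. Control replicate 3, also without Camp counts, had the highest neutrophil sum of the controls, at 175 CPM. In LL37 + RAPA, Camp was highest in replicate 1, at 6 counts, where the neutrophil sum was lowest, at 241 CPM. The part of neutrophils in the Camp counts was not tested.

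Ratios within a library do not depend on how libraries are scaled, and they showed a shift in the make-up of the kallikrein transcripts. The level per kb summed over the 7 kallikreins was 153 to 217 CPM per kb in control, 267 to 561 in LL37, 148 to 194 in LL37 + RAPA and 212 to 262 in control + RAPA. Klk6 made up 3.42 to 13.8% of this sum in control, 33.8 to 41.9% in LL37, 5.73 to 15.0% in LL37 + RAPA and 5.46 to 7.16% in control + RAPA. Over the same groups the share of Klk5 was 24.3 to 33.4%, 10.3 to 12.2%, 21.8 to 27.0% and 27.7 to 30.8%. Thus the shares of Klk6 and Klk5 in LL37 skin did not overlap those in any other group, in opposite directions, and the Klk7 share was also lower there (30.9 to 36.2%, against 39.8 to 47.4% in all other libraries). A share falls when another member rises, so the lower share of Klk5 need not be a lower level.

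**Figure D3:**
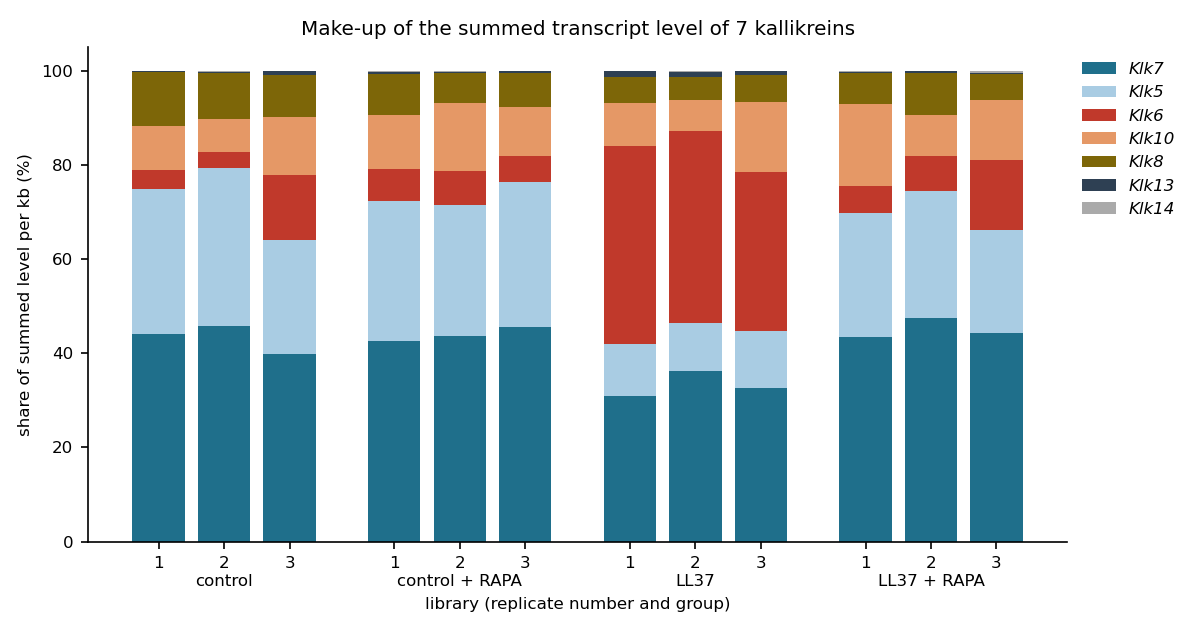
Share of each kallikrein (colours) in the transcript level per kb summed over the 7 kallikreins, in percent (vertical axis), for each of the 12 libraries (horizontal axis, by group and replicate). The Klk6 share is 33.8 to 41.9% in the 3 LL37 libraries and at most 15.0% in the other 9.

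Set against the inhibitor, the picture was similar. The ratio of the summed kallikreins to Spink5, both per kb, was 2.13 to 2.83 in control, 4.38 to 6.22 in LL37, 2.23 to 2.78 in LL37 + RAPA and 2.48 to 2.71 in control + RAPA. For Klk6 alone the ratio to Spink5 was 0.0819 to 0.391 in control, 1.78 to 2.42 in LL37 and 0.128 to 0.418 in LL37 + RAPA. For Klk7 it was 0.938 to 1.13, 1.58 to 2.02 and 0.970 to 1.23 in these groups, and LL37 again did not overlap the others. For Klk5 the ratio was 0.656 to 0.800, 0.451 to 0.761 and 0.584 to 0.670, with overlap throughout. With 3 libraries against 3, an exact permutation test of such a ratio cannot pass the threshold, so none is given. Transcript ratios do not measure protease activity, which depends on activation of the proenzymes and on binding of the inhibitor protein.

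Along the chromosome, the genes that moved most were not next to each other. Klk6 is flanked by Klk7 (log2 fold change 0.79 against control) and Klk5 (-0.17), and Klk13 by Klk14 (0.80, not called) and Klk12 (1.60, adjusted p = 0.107). Of the 6 other tissue kallikreins listed, Klk9, Klk11 and Klk12 were tested. Klk9 was at 44.1, 45.7 and 53.8 CPM in control, 97.9, 54.5 and 96.7 CPM in LL37 and 37.0, 34.8 and 33.8 CPM in LL37 + RAPA, and was called in the second comparison (1.24, SE 0.19, adjusted p = 0.00193) but not in the first (0.80, adjusted p = 0.00512, under the fold limit). Klk11 was not called (0.03, adjusted p = 0.922, and 0.42, adjusted p = 0.143). Klk1, Klk4 and Klk15 held 47, 2 and 0 counts in all 12 libraries together and were not tested. Kallikrein genes are related in sequence, and how reads matching more than 1 of them were counted is not given in the sources used here.

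**Figure D4:**
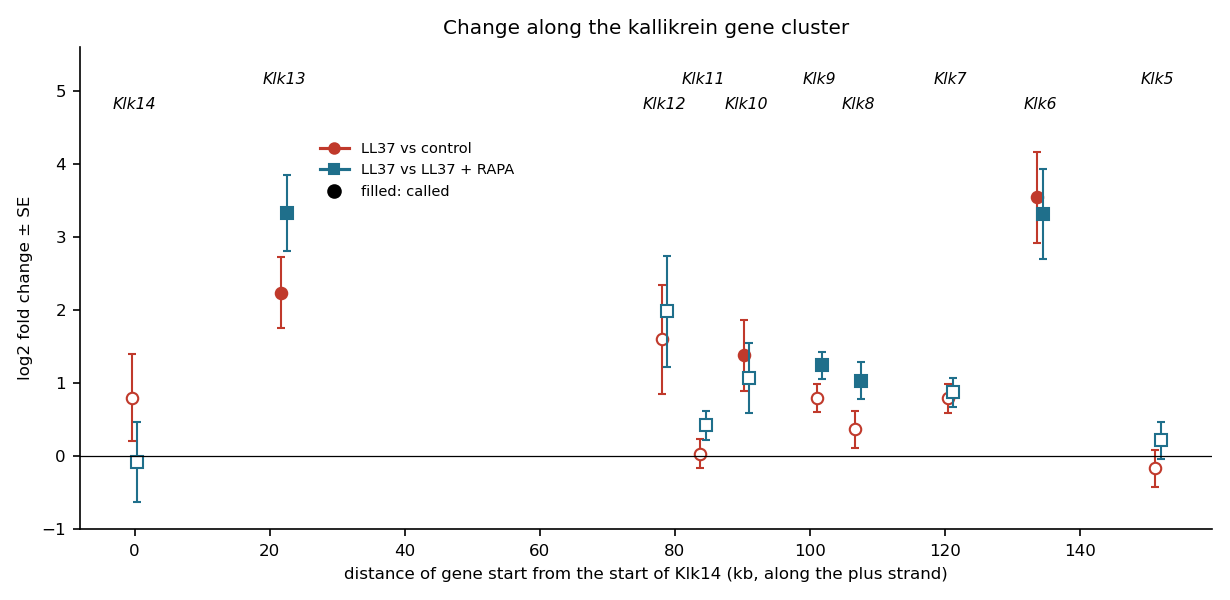
Log2 fold change ± SE (vertical axis) of 10 kallikrein genes by the distance of their start from that of Klk14 in kb (horizontal axis), for LL37 against control (circles) and against LL37 + RAPA (squares), with 3 libraries per group. Filled symbols are called; Klk13 and Klk6, the highest, are separated by genes with smaller changes.

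In the other pairwise comparisons no member was called. This held for LL37 + RAPA against control, where 6.49% of all genes were called, and for LL37 + RAPA against control + RAPA (8.39% of all genes). In control + RAPA against control, edgeR called 0 of all genes (0%) and DESeq2 called 53, none of them a member. At an unadjusted p under 0.05, the count of members was 1 (Klk8), 2 (Klk5 and Spink5) and 0 in these 3 comparisons. For Klk6 the log2 difference of LL37 + RAPA from control was 0.23 (SE 0.58, adjusted p = 0.849), and for Klk13 it was -1.09 (SE 0.53, adjusted p = 0.208). RAPA alone gave 0.10 (SE 0.58) for Klk6 and -0.36 (SE 0.51) for Klk13.

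The interaction term tested whether the effect of LL37 differed with and without RAPA. Klk6 (3.41, SE 0.83, adjusted p = 0.0481), Klk13 (2.96, SE 0.72, adjusted p = 0.0482) and Klk7 (1.19, SE 0.28, adjusted p = 0.0448) were called, as were 2.38% of all genes in either direction and 0.65% in this one. These adjusted values lie close to the limit. The call of all 3 members was lost without control replicate 1 or 2, LL37 replicate 1 or any single library given RAPA, with adjusted p of up to 0.126 for Klk6 and Klk13 and 0.119 for Klk7, while the log2 values stayed between 3.03 and 4.07 for Klk6, 2.61 and 3.21 for Klk13 and 0.97 and 1.26 for Klk7 wherever leaving out a library lost the call.

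Many activated keratinocyte markers, like Klk6 and Klk13, were higher in LL37 than in control or LL37 + RAPA. Of all genes tested, 8.73% were called higher in LL37 than in control and 4.33% higher than in LL37 + RAPA. Of 14 activated keratinocyte markers (genes of wounded or inflamed epidermis, such as the keratins Krt6a and Krt17), 13 were found and 12 tested, with 9 called higher in LL37 than in control and 8 higher than in LL37 + RAPA. Their summed level was 1373 to 2810 CPM in control, 7096 to 11681 CPM in LL37, 2070 to 3231 CPM in LL37 + RAPA and 2221 to 2430 CPM in control + RAPA. Control replicate 3 and LL37 + RAPA replicate 3, the high libraries of their groups for Klk6, had the highest sums of their groups, at 2810 and 3231 CPM. In LL37, replicate 1 was highest for both, but replicate 3 had the lowest sum (7096 CPM) with Klk6 at 287 CPM. The lowest Klk6 level of LL37, 165 CPM in replicate 2, went with a sum of 8879 CPM. The part of keratinocyte activation in the kallikrein values was not tested. Granular and cornified layer markers, the layers where kallikreins are secreted, had no called gene among 22 in LL37 against control, with sums of 25187 to 31675 CPM in control and 17902 to 35899 CPM in LL37. Against LL37 + RAPA, where the sum was 20811 to 23868 CPM, 2 of the 22 were called higher in LL37, the filaggrin gene Flg (1.72, SE 0.46, adjusted p = 0.0214) and Hrnr (1.32, SE 0.19, adjusted p = 0.00167), which encodes hornerin. The sum was lowest in LL37 replicate 2, which was also the lowest LL37 library for Spink5 and for all kallikreins of the set except Klk14. The part of these layers in the kallikrein values was not tested.

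Because epidermal RNA took a larger part of the LL37 libraries, the values were also scaled to the summed counts of the 18 pan-epidermal markers. Of these, 4 were themselves called higher in LL37 than in control. Krt5 and Krt14, the most abundant, weigh most in the sum. Their means were 5588 and 4514 CPM in control and 8045 and 9839 CPM in LL37. The median log2 change of the 18 markers in LL37 against control was 0.49. This scaling lowers the median log2 change of all genes by 0.63 in LL37 against control and by 0.48 in LL37 against LL37 + RAPA. Klk6 (2.87 and 2.81) and Klk13 (1.57 and 2.82) were still called in both. Klk10 against control (0.70, adjusted p = 0.2) and Klk8 against LL37 + RAPA (0.53, adjusted p = 0.0798) were no longer called, and Klk7 was at 0.16 (adjusted p = 0.45) against control. On this scale Klk5 (-0.79, adjusted p = 0.00647) and Spink5 (-0.63, adjusted p = 0.00698) had an adjusted p under 0.05 against control, within the fold limit, and the Spink5 value equals the shift of the median gene.

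**Figure D5:**
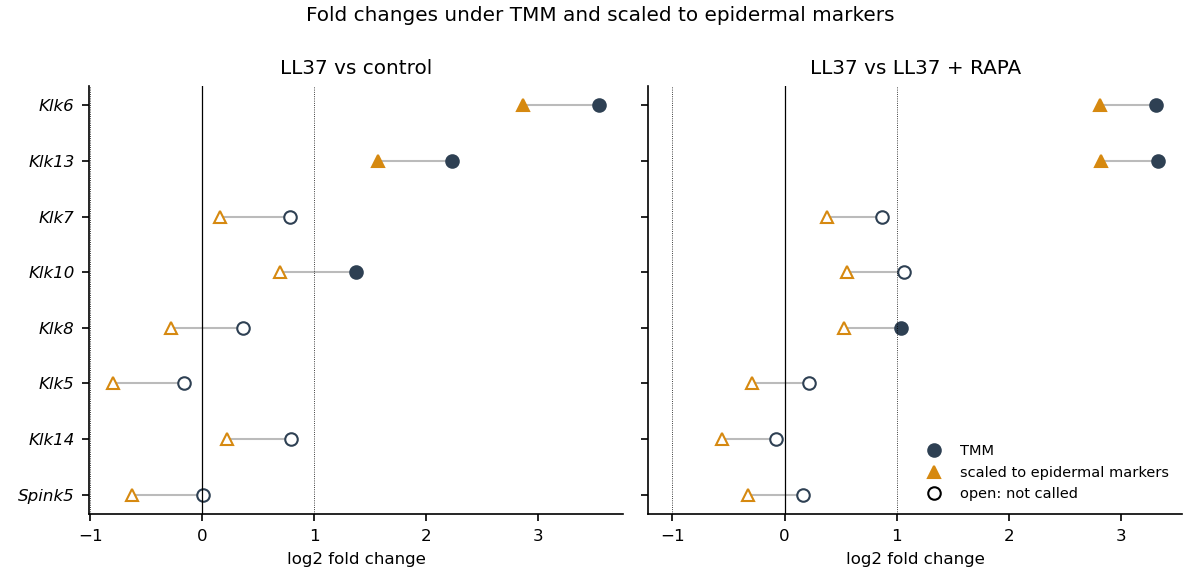
Log2 fold change (horizontal axes) of the 7 kallikreins and Spink5 (vertical axis) for LL37 against control (left) and against LL37 + RAPA (right) after TMM normalization (circles) and after scaling to 18 pan-epidermal markers (triangles). Filled symbols are called; every gene moves to the left, and Klk6 and Klk13 alone stay filled in both panels under both scalings.

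Other genes of the pathway were counted in lists, here and in the next paragraph. Of all genes tested, 8.73% were called higher and 10.8% lower in LL37 than in control. Against LL37 + RAPA the shares were 4.33% and 5.8%. Among proteases that activate kallikreins or also cut cathelicidin, 1 of 10 tested was called in LL37 against control, the cysteine protease gene Ctsl (1.38, SE 0.21, adjusted p = 0.000362), and Prtn3, a neutrophil serine protease that cuts human cathelicidin, was called lower in LL37 than in LL37 + RAPA (-2.06). Of 13 tested inhibitors other than Spink5, 5 were called higher and 1 lower in LL37 than in control, led by Slpi (4.16, SE 0.61), which inhibits leukocyte elastase, Wfdc12 (4.04, SE 0.70), of the same whey acidic protein family, and the serpin gene Serpina3n (2.34, SE 0.52). Against LL37 + RAPA, 3 inhibitors were called higher; Slpi was at 1.66 and Wfdc12 at 4.64, while Serpina3n was at -0.32 and not called.

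Of 12 substrates and receptors, 4 were called higher and 1 lower in LL37 in each of the 2 main comparisons. The formyl peptide receptor genes Fpr1 (5.89, SE 1.01) and Fpr2 (4.37, SE 0.92), the second of which is a receptor for LL37, and Dsg1c (4.44, SE 0.61), which encodes a desmoglein of the kind that kallikreins cleave, had the highest values against control. The fourth was Tlr2 (2.92), and Mrgprb2, a mast cell receptor gene, was the one called lower (-1.86). Fpr1, like the neutrophil sum, was lowest in LL37 replicate 3 among the LL37 libraries (2.50 to 34.7 CPM). Of 7 tested regulators of Camp, the vitamin D activating enzyme gene Cyp27b1 (2.49, SE 0.65) and Hif1a (2.04, SE 0.32) were called higher against control and both also against LL37 + RAPA (1.93 and 1.62), with Camp itself at the counts given above.

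The genes with the profile nearest to each member over the 12 libraries were found by the root mean square difference of centred log2 CPM. For Klk13 the nearest were Teddm3 (0.32), Atp13a4 (0.35) and Elf3 (0.43), against a median of 1.35 over all tested genes. For Klk6 they were Cpn1 (0.61), Gm26579 (0.67) and Gm15845 (0.68), against a median of 1.73. For Klk7 they were Ggct (0.12), Gsdma (0.14) and Erbb3 (0.16), against 0.53, and for Klk8 Blmh (0.20), Gm11992 (0.20) and Lce1f (0.22), against 0.58. Klk10 was nearest to Fcamr (0.40), Serpinb6c (0.42) and Sprr4 (0.43), against 0.82. For Camp the nearest were Gm44424 (0.59), Gm19178 (0.67), Gm44686 (0.69), Cfap54 (0.70) and Ackr3 (0.71), against 1.13, and at so few counts the order of these names carries little weight.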

How the data were processed

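The authors deposited raw counts of reads per gene, without normalization, for 12 libraries of whole skin from 4 groups of 3. The study's methods name TRIzol RNA, paired-end sequencing and counting by HTSeq, whereas the submitters' processing notes list HISAT2 2.0.5, StringTie 1.3.3b, featureCounts 1.5.0-p3 and DESeq2 1.16.1 with mm10. The strand setting is not given in the sources used here. Of 52636 gene identifiers, 52403 had a symbol; exon lengths are unions of GENCODE M21 exons.

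Counts were fitted over all 12 libraries with edgeR 4.0.16 in R 4.3.3 (TMM, filterByExpr, quasi-likelihood test, Benjamini-Hochberg adjustment over 17993 genes); 95% intervals come from the fit. Calls needed an adjusted p-value below 0.05 together with a log2 fold change beyond 1 in either direction. LL37 skin was compared with control and with LL37 + RAPA; the RAPA groups were compared with control and with each other; and the interaction was tested. Ratios of pooled Camp counts have exact 95% intervals for counting error. Alternatives were DESeq2 1.42.0, other scalings and filters, fewer groups, no fold limit, a replicate block and each library left out. The test was tried on simulated data. The nearest profiles used log2 CPM with a prior count of 2.

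The members and gene lists were chosen with earlier results of these data known. All members are named; up to 3 called genes a list with the largest change in LL37 vs control, the 2 most abundant genes of marker lists, and the nearest 3 genes by profile (5 for Camp) are named by rule. Klk11, Klk12, Klk9, Klk1, Klk4, Klk15, Ngp, Ltf, Chil3, Cd177, Flg, Hrnr, Prtn3, Tlr2 and Mrgprb2 were named after their values were seen.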

Additional observations from a re-analysis of the deposited data

Results flagged for a closer look

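Among the members and Klk9, the effect of LL37 differed with and without RAPA for 4 genes by the interaction test of edgeR. Of all genes tested, 2.38% were called in either direction and 0.65% in the direction of these 4. The LL37 effect without RAPA exceeded that with RAPA by 3.41 on the log2 scale for Klk6 (adjusted p = 0.0481), by 2.96 for Klk13 (adjusted p = 0.0482), by 1.19 for Klk7 (adjusted p = 0.0448) and by 1.49 for Klk9 (adjusted p = 0.0235), a neighbour outside the set. For the 3 members these calls were not stable. None of them was called when any of 9 of the 12 libraries was left out, or with library size only, and Klk6 alone was called with the replicate block. Klk7 also lost its call with scaling to epidermal markers (0.63, adjusted p = 0.0831 by edgeR). The alternatives were not run for Klk9. Outlying single libraries were not tested for.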

How the results depend on the processing

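Klk6 and Klk13 were called in both main comparisons under all 10 alternatives and with each of the 6 compared libraries left out. Among these alternatives, the one with no fold limit reuses the main fit, so no called gene could lose its call there. Klk10 against control was called under 7 of 10 alternatives (not with scaling to epidermal markers, the replicate block, adjusted p = 0.0530, or only the groups compared) and with 2 of 6 libraries left out, and Klk8 against LL37 + RAPA under 6 of 10 and with 2 of 6 left out. With single libraries left out, the number of members called ranged from 2 to 4 in LL37 vs control, from 2 to 5 in LL37 vs LL37 + RAPA (5 without LL37 replicate 2) and from 0 to 2 in the interaction (3 as reported). For the interaction it was 0 with library size only, 1 with skeletal muscle markers removed before TMM and 1 with the replicate block; the cause was not tested. No called value changed sign, and 47 of 1163 member values, all uncalled, did. Whether numbers shared by replicates pair the samples was not settled. The deviations of 18 same-number pairs correlated at -0.188 to 0.263, and 4 were over 0.1. Pairs with different numbers correlated at -0.303 to 0.277, which spans the same-number range, so these correlations cannot decide it. The replicate block lost Klk10 and Klk8 as above and, in the interaction, Klk7 (adjusted p = 0.0705) and Klk13 (adjusted p = 0.059). Over all genes, calls ranged from 2368 to 7668 (3516 as reported) in LL37 vs control, from 1104 to 4359 (1823) in LL37 vs LL37 + RAPA, from 743 to 2527 (1168) in LL37 + RAPA vs control, from 1020 to 3338 (1510) in LL37 + RAPA vs control + RAPA, from 0 to 53 (0) in control + RAPA vs control and from 2 to 2656 (429) in the interaction. Low counts and the spread between libraries limit Camp and Klk14. The floor and the intervals on counts cover counting error only.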
